A study of Mus musculus with 7 samples.

Results

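The Commander complex is an assembly of 16 proteins that returns membrane proteins from endosomes to the cell surface. The genes described here are 10 rows of the count table, out of 25655, chosen by gene symbol: Commd1, Commd1b, Commd2, Commd3, Commd9, Commd10, Ccdc22, Ccdc93, Vps35l and Vps26c. Commd1b entered the list because of its difference between the groups, and the others because their products belong to the same complex. The contrast between the groups was therefore used in choosing them, and their values in it are given as a description, with counts past a threshold set beside those of all genes and no p-value for any member. All 10 had a row and passed the low-count filter, Commd1b only through the counts of the Tppp3 group.

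RNA was measured in whole retinas of wild-type C57BL/6 mice taken 2 days after the optic nerve was crushed, which damages ganglion cell axons. The eyes had been given AAV2, an adeno-associated viral vector, with either a control construct that the labels place with CMV, the cytomegalovirus promoter, or a construct to overexpress Tppp3, a tubulin polymerization-promoting protein. The sources used here do not give the promoter of the Tppp3 vector, the time of its delivery or the age of the mice. Both groups carried AAV2 and the nerve injury, so neither shows the uninjured or untreated retina. Ganglion cells are a small part of the retina, and in whole tissue fewer cells of a type and less RNA per cell cannot be told apart. Of the 4 control and 3 Tppp3 samples in the labels, 3 and 3 libraries were analysed, with 10961443 to 16218074 counts in the controls and 19961359 to 21843892 in the deeper Tppp3 libraries. Rod photoreceptor markers, which define the bulk of the retina, summed to 44021 to 56704 CPM, the counts per 1000000 of the effective library size. Tppp3 stood at 18.7 to 28.0 CPM in the controls and at 36.5 to 53.7 CPM with its vector, without overlap, where reads of the gene and the vector cannot be told apart. Its log2 fold change was 0.94 ± 0.20 (SE, edgeR adjusted p = 0.639), and 13.9% of all tested genes had groups without overlap. Summed markers were at 3186 to 4456 CPM for Müller glia, 1291 to 1637 for bipolar, 1088 to 1179 for amacrine and 621 to 745 for ganglion cells, 72.5 to 169 for microglia, 0.994 to 10.3 for lens and 41.9 to 49.4 for optic nerve and choroid, whose marker Mobp was at 0 in every library. None of the genes of these lists passed an adjusted p of 0.05 in edgeR's test.

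Commander is built from a ring of COMMD proteins, COMMD1 to COMMD10, held by the coiled-coil proteins CCDC22 and CCDC93 and joined by DENND10. It also contains Retriever, a trimer of VPS35L, VPS26C and VPS29 that resembles the retromer coat. With the adaptor SNX17 and the actin-organising WASH complex on the endosome, it recycles integrins and other receptors, and its COMMD1 subunit is also known for roles in copper transport and in the turnover of NF-kB.

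Commd1b is the member with an unclear gene model, so the annotation next to Commd1 is described before its counts. None of the reference tables used here, which are of another build (GRCm38) than the one named for these counts (GRCm39), holds the symbol Commd1b. On chromosome 11, the GENCODE M21 annotation has Commd1 on the minus strand with B3gnt2 downstream of it. It also has a predicted coding gene, Gm28048, whose transcript joins exons of both. Of its 2746 bases, 294 are those of Commd1, made of the last 12 bases of the first Commd1 coding exon and the whole second exon of 282 bases. The other 2452 bases lie in 1 exon that overlaps the last exon of B3gnt2 over 2449 bases. No row analysed here is named Gm28048, although 4073 rows carry names of that form, and whether the row Commd1b stands for this model was not established. The exon junctions are shown because a read across them is what tells such a joined transcript from Commd1. Both are transcript sequences of the minus strand of chromosome 11 from GENCODE M21. Lower case marks the last 40 bases of the shared exon, and capitals the next 20 bases, from the third Commd1 exon in the upper sequence and from the B3gnt2 exon in the lower.
Commd1 junction: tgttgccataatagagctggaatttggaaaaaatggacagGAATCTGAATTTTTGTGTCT
Gm28048 junction: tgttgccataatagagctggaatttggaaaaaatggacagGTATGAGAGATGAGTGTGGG
The 20 bases in capitals are identical at 6 positions. A read within the lower-case part belongs to both models, and a read wholly inside the long last exon of Gm28048 also belongs to B3gnt2. How such reads were divided is not given in the sources used here.

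Commd1b was nearly absent from the control libraries and present in every Tppp3 library. Its raw counts were 5, 0 and 0 in control replicates 1, 2 and 3, and 80, 66 and 40 in Tppp3 replicates 1, 2 and 3. As levels, these were 0.442, 0 and 0 CPM against 4.06, 2.98 and 1.90 CPM. The groups did not overlap, and within the Tppp3 group the highest library held more than the lowest by a margin larger than the whole control range. A count of 0 allows up to 3 counts, which is 0.184 CPM in control replicate 2 and 0.271 CPM in control replicate 3.

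The group means were 0.147 ± 0.255 CPM (SD, n = 3) in the controls and 2.98 ± 1.08 CPM (SD, n = 3) with Tppp3 AAV2. Summed over libraries, 5 counts in the controls stood against 186 with Tppp3 AAV2, a 22.9-fold ratio of CPM with a 95% exact interval of 9.62 to 71.2. The interval covers counting error only, and reads without molecular identifiers are not independent molecules. All 5 control counts came from control replicate 1. Without that library the controls were at 0, and the level with Tppp3 AAV2 was 26.9 times that of 3 counts over the remaining controls. That is a lower limit of the ratio where a count of 0 allows up to 3 counts. The ratio was 13.2 without control replicate 2 and 16.3 without control replicate 3. Without Tppp3 replicates 1, 2 and 3 it was 18.95, 22.8 and 27.0.

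The fitted log2 fold change of Commd1b was 4.42 ± 0.82 (SE), a value that depends on how the fit treats counts of 0, and it was 8.75 without control replicate 1 and 3.70 without control replicate 2. Fitted log2 fold changes of the 14750 tested genes ran from -2.45 to 4.42, with Commd1b at the upper end. It was also the 1 gene among them, 0.00678%, with every control library under 0.5 CPM and every Tppp3 library over 1 CPM, while 0 genes had the reverse pattern. These limits were set after its values were seen. Over all tested genes, 0% passed an adjusted p of 0.05 as higher and 0.0136% as lower with Tppp3 AAV2 in edgeR's quasi-likelihood test, and Commd1b was not among them.

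**Figure D1:**
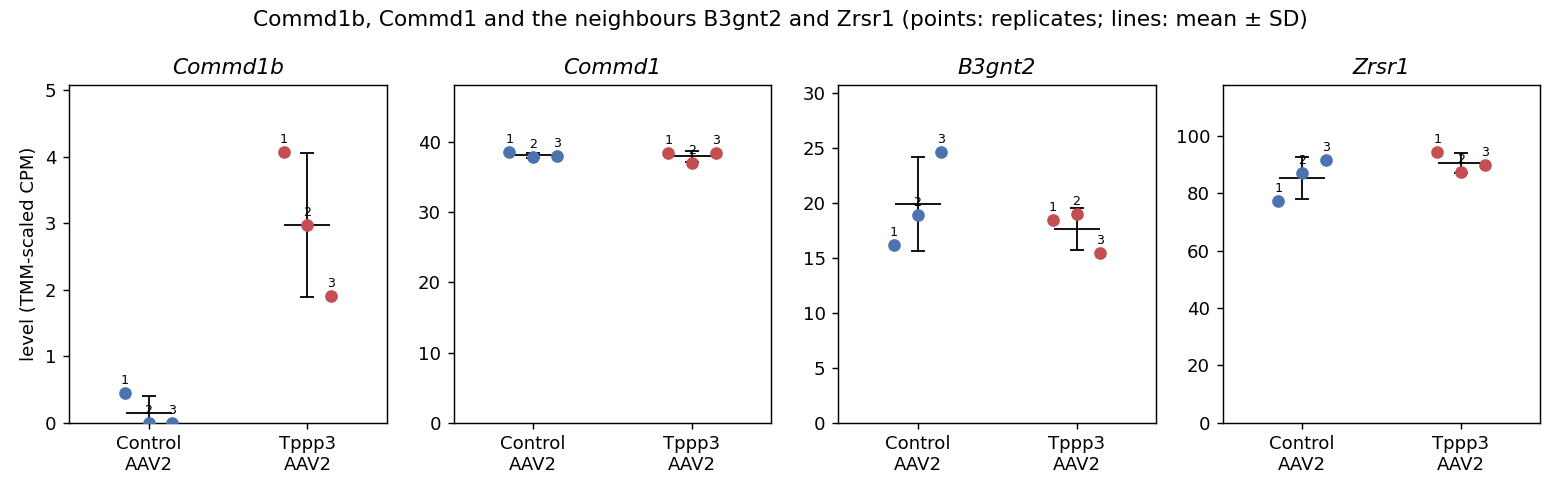
Level in TMM-scaled CPM (vertical axis) of Commd1b, Commd1, B3gnt2 and Zrsr1 in 3 control AAV2 and 3 Tppp3 AAV2 libraries, numbered by replicate, with the mean and SD of each group as lines. Commd1b lies at 0 to 0.442 CPM in the controls and 1.90 to 4.06 CPM with Tppp3 AAV2, while the groups overlap for Commd1, B3gnt2 and Zrsr1.

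Because depth differed between the groups, the counts were also thinned to the total of the smallest library. Commd1b then held 5, 0 and 0 counts in the controls and 44, 26 and 29 with Tppp3 AAV2. Pigment epithelium markers, genes of the cell layer behind the retina, also varied. Their 10 genes summed to 131, 18.6 and 15.0 CPM in control replicates 1, 2 and 3 and to 135, 23.5 and 130 CPM in Tppp3 replicates 1, 2 and 3, with no marker at 0 in every library. Control replicate 1, the only control with Commd1b counts, was the only control with a high pigment sum. Tppp3 replicate 2 held 66 Commd1b counts at a low pigment sum. The part of pigment cells in the result was not tested beyond these values.

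Commd1, whose product is the founding COMMD protein, was the steadiest member. Its levels were 38.5, 37.9 and 38.05 CPM in control replicates 1, 2 and 3 and 38.5, 37.07 and 38.5 CPM in Tppp3 replicates 1, 2 and 3. The ranges overlapped, and the log2 fold change was -0.0057 ± 0.064 (SE). Its pooled coefficient of variation within groups was 1.63%, where the median over 10390 tested genes with at least 10 CPM was 6.17%.

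Levels of Commd1b and Commd1 were set side by side, and whether counts moved between them was not tested. The mean level of Commd1b was 2.83 CPM above that of the controls, and that of Commd1 differed by -0.154 CPM. With the counts of both summed before the fit, the log2 fold change was 0.098 ± 0.064 (SE), against -0.0057 for Commd1 alone. The sum averaged 38.3 ± 0.602 CPM (SD, n = 3) in the controls and 40.98 ± 1.35 CPM (SD, n = 3) with the Tppp3 vector.

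Expressed as a share of the counts of both genes, Commd1b made up 1.13% in control replicate 1 (5 of 441 counts, 95% Clopper-Pearson interval 0.369 to 2.63%). In control replicates 2 and 3 it was 0 of 616 and 0 of 421 counts, which allows shares of up to 0.487% and 0.713% at 3 counts, or 0.597% and 0.872% as upper Clopper-Pearson limits. With Tppp3 AAV2 the share was 9.56% in replicate 1 (7.65 to 11.8%), 7.43% in replicate 2 (5.79 to 9.36%) and 4.71% in replicate 3 (3.38 to 6.35%). These intervals again cover counting error only, and nothing is read from their separation, since Commd1b was chosen for this difference. The mean share was 0.378 ± 0.655% (SD, n = 3) in the controls and 7.23 ± 2.43% (SD, n = 3) with Tppp3 AAV2.

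**Figure D2:**
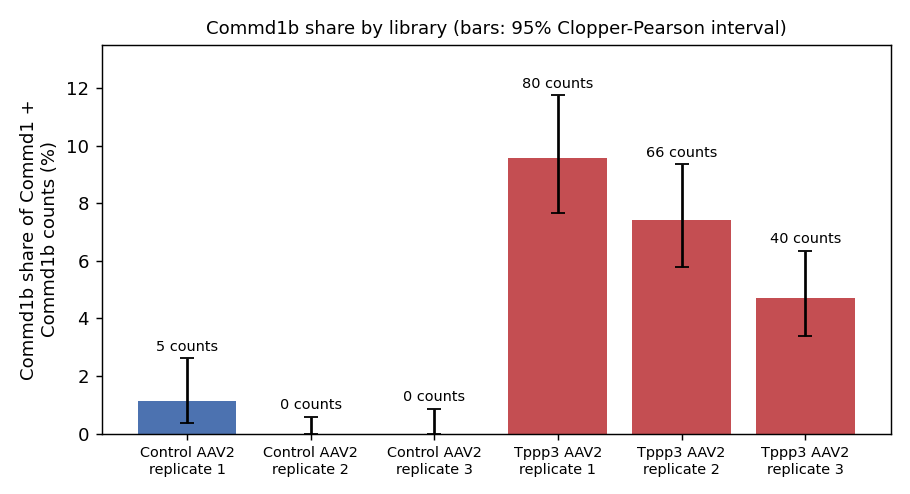
Commd1b share of the counts of Commd1 and Commd1b (vertical axis, percent) in each of the 6 libraries, with 95% Clopper-Pearson intervals and the Commd1b count above each bar. The controls lie at 0 to 1.13% and the Tppp3 libraries at 4.71 to 9.56%.

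The genes around Commd1 had no such split. B3gnt2, which encodes an enzyme that builds poly-N-acetyllactosamine chains on glycans, stood at 16.2, 18.9 and 24.6 CPM in the controls and at 18.4, 19.0 and 15.4 CPM with Tppp3 AAV2. Its group means were 19.9 ± 4.29 CPM in the controls and 17.6 ± 1.91 CPM with Tppp3 AAV2 (SD, n = 3 per group). The log2 fold change of B3gnt2 was -0.17 ± 0.15 (SE, edgeR adjusted p = 0.841). The sum of B3gnt2 and Commd1b was 16.6, 18.9 and 24.6 CPM in the controls and 22.5, 21.96 and 17.3 CPM with Tppp3 AAV2, with overlapping ranges. The mean of B3gnt2 was thus lower where that of Commd1b was 2.83 CPM higher. Whether counts moved between them was not tested. Zrsr1, an imprinted gene of a splicing factor that lies inside Commd1 on the opposite strand, stood at 77.4 to 91.6 CPM in the controls and 87.5 to 94.2 CPM with Tppp3 AAV2 (log2 fold change 0.084 ± 0.067, adjusted p = 0.823). Cct4, a chaperonin gene on the far side of Commd1, gave 0.085 ± 0.058 on the log2 scale (adjusted p = 0.800).

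Genes that followed Commd1b most closely over the 6 libraries were sought by Pearson correlation of log2 CPM among 14084 other genes with a mean of at least 1 CPM. The 5 nearest were Ppid (r = 0.994), Chrnb4 (0.989), Akr1c6 (0.988), Mtfp1 (0.987) and Phip (0.986), and 37 genes had an r over 0.95. These values largely restate that each gene's groups did not overlap, and no test was made of them. Their fitted log2 fold changes, from 0.10 (Ppid) to 1.19 (Akr1c6), were smaller than that of Commd1b. Chrnb4, a nicotinic receptor subunit, stood at 3.16 to 4.24 CPM in the controls and 5.41 to 5.69 CPM with Tppp3 AAV2. Akr1c6, an aldo-keto reductase, stood at 1.04 to 1.77 and 2.94 to 3.30 CPM. Ppid, a cyclophilin, stood at 45.5 to 47.1 and 48.8 to 50.1 CPM.

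The remaining COMMD members had small differences. Commd9, a ring subunit, was lower in each Tppp3 library than in any control, at 15.4, 15.5 and 18.3 CPM in the controls and 12.5, 13.2 and 13.6 CPM with Tppp3 AAV2. The group means were 16.4 ± 1.61 and 13.1 ± 0.549 CPM (SD, n = 3 per group), which gave a log2 fold change of -0.32 ± 0.11 (SE). Over the alternatives run it lay between -0.37, without control replicate 1, and -0.22, after thinning to equal depth. Commd2 stood at 18.7, 15.98 and 17.9 CPM in the controls and 13.9, 16.1 and 14.5 CPM with Tppp3 AAV2. Control replicate 2 lay just under Tppp3 replicate 2, so the groups overlapped, and the log2 fold change was -0.24 ± 0.11.

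Commd3 and Commd10, the other ring subunits among the members, overlapped between the groups. Commd3 levels were 27.9, 28.4 and 29.8 CPM in the controls and 27.0, 27.1 and 28.4 CPM with Tppp3 AAV2, which gave a log2 fold change of -0.062 ± 0.074. Those of Commd10 were 22.4, 21.02 and 25.2 CPM and 23.2, 21.96 and 24.5 CPM, which gave a log2 fold change of 0.025 ± 0.093. For both, the difference was smaller than its standard error.

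The coiled-coil genes were level between the groups to within their spread. Ccdc22, whose product links the COMMD ring to the rest of the complex, had 24.2, 27.2 and 26.03 CPM in the controls and 25.2, 27.2 and 25.2 CPM with Tppp3 AAV2 (log2 fold change 0.0031 ± 0.082, SE). Ccdc93, its coiled-coil partner, had 38.9, 46.7 and 44.1 CPM and 42.02, 45.3 and 45.6 CPM (log2 fold change 0.033 ± 0.078). The lowest value of Ccdc93 was that of control replicate 1, and without that library its log2 fold change was -0.040.

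The Retriever members also overlapped between the groups. Vps35l, the long scaffold subunit, had 51.5, 51.8 and 48.5 CPM in the controls and 48.01, 49.3 and 49.1 CPM with Tppp3 AAV2, and a log2 fold change of -0.053 ± 0.060 (SE). Vps26c, its arrestin-fold partner, had 23.5, 21.1 and 21.6 CPM and 25.96, 21.96 and 21.9 CPM, and a log2 fold change of 0.076 ± 0.096. The highest Vps26c value was that of Tppp3 replicate 1, and without it the log2 fold change was -0.014.

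**Figure D3:**
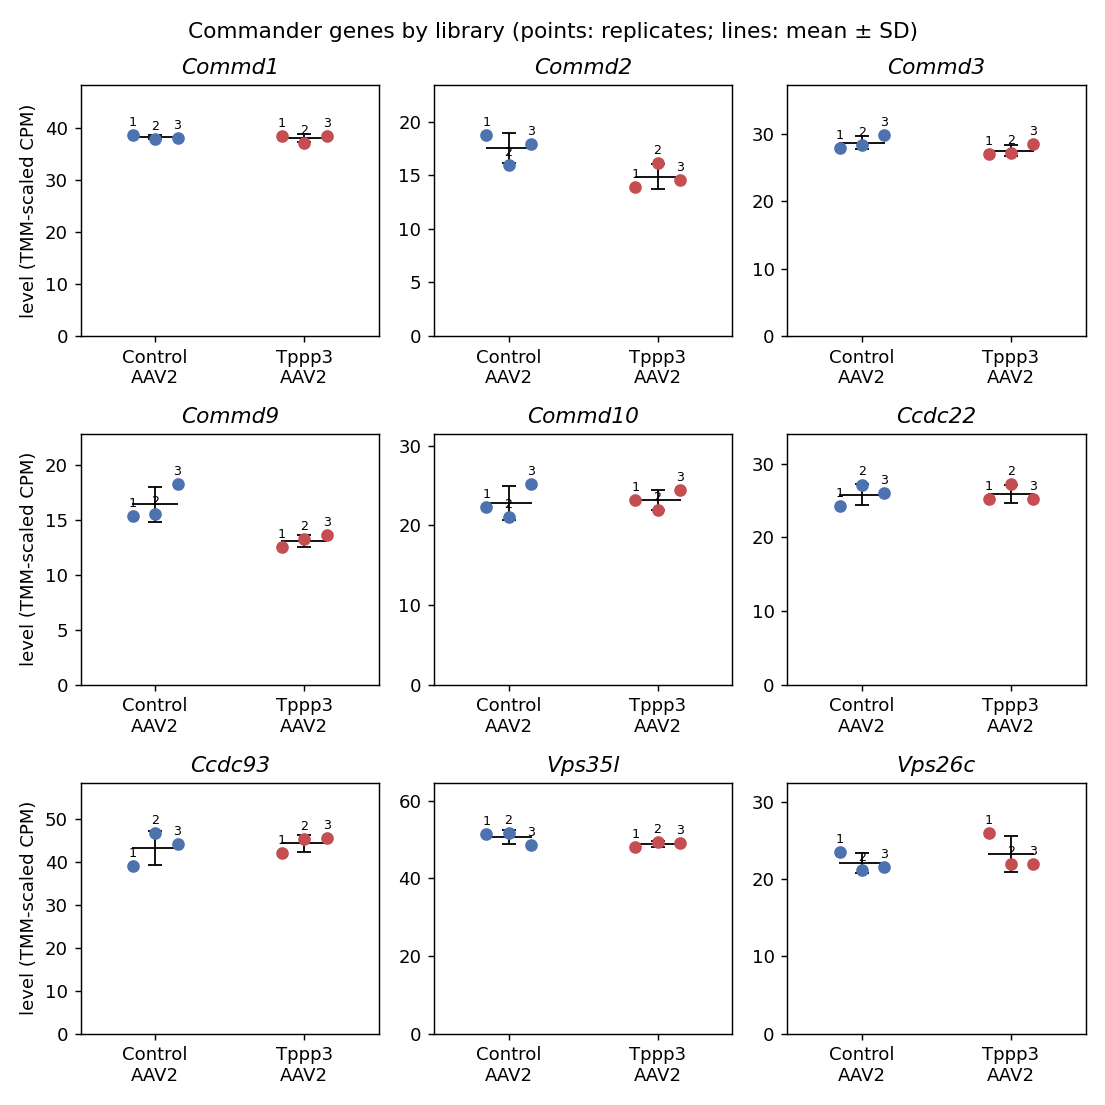
Level in TMM-scaled CPM (vertical axis, from 0) of the 9 members other than Commd1b in 3 control AAV2 and 3 Tppp3 AAV2 libraries, numbered by replicate, with group means and SD as lines. The groups overlap for 8 genes, and Commd9 lies at 15.4 to 18.3 CPM in the controls and 12.5 to 13.6 CPM with Tppp3 AAV2.

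Counted as a set, 5 of the 10 members had a positive and 5 a negative log2 fold change, where 50.9% of all tested genes were positive, and their median was -0.0013, beside 0.0030 over all tested genes. Groups did not overlap for 2 members, Commd1b and Commd9, where 13.9% of all tested genes had groups without overlap. Commd1b was higher with Tppp3 AAV2, as were 6.92% of all tested genes without overlap, and Commd9 lower, as were 7.02%. In edgeR's test 0 members passed an adjusted p of 0.05, where 0.0136% of all tested genes did, and 3 had an unadjusted p under 0.05, where 7.23% did. DESeq2's Wald test passed 0 members, where 0.0949% of all genes it tested passed, and 2 had an unadjusted p under 0.05, where 4.16% did. Because the contrast was used in choosing the members, nothing is read from these counts.

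The other 7 subunits of the complex were not in the list, and their values were read from the same fit. They too were listed with earlier results of these data known. Commd4, Commd5, Commd6, Commd7 and Commd8 complete the COMMD ring, Dennd10 encodes its DENN-domain partner, and Vps29 encodes the Retriever subunit shared with retromer. None passed an adjusted p of 0.05 in edgeR's test or DESeq2's Wald test, where 0.0136% and 0.0949% of all tested genes did. At an unadjusted p under 0.05 there was 1 in edgeR and 0 in DESeq2, against 7.23% and 4.16% of all tested genes. Their median on the log2 scale was -0.13, beside 0.0030 over all tested genes, with 2 positive and 5 negative.

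Commd4, a ring subunit, had the most negative value among these 7. Its levels were 17.5, 16.3 and 17.4 CPM in the controls and 13.6, 14.5 and 14.6 CPM with Tppp3 AAV2, without overlap (log2 fold change -0.26 ± 0.097, edgeR adjusted p = 0.648). Vps29 was at 68.8, 65.7 and 70.2 CPM in the controls and 72.3, 70.5 and 73.8 CPM with Tppp3 AAV2, also without overlap (log2 fold change 0.083 ± 0.056, adjusted p = 0.790). Groups of the other 5 overlapped, where 13.9% of all tested genes had groups without overlap. Commd5, the one with the fewest counts, had a fold change on the log2 scale of -0.18 ± 0.21 (adjusted p = 0.890), Commd8 of -0.14 ± 0.099 (adjusted p = 0.803), Commd6 of -0.13 ± 0.094 (adjusted p = 0.809), Commd7 of -0.091 ± 0.089 (adjusted p = 0.865) and Dennd10 of 0.049 ± 0.060 (adjusted p = 0.904).

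Taking members and other subunits by their place in the complex, after their values were seen and so without a test, most COMMD genes had values below those of the other subunits. Of the 10 COMMD genes without Commd1b, 9 had a negative log2 fold change, with a median of -0.13, where 50.9% of all tested genes were positive. They summed to 235, 237 and 245 CPM in the controls and to 216, 229 and 218 CPM with Tppp3 AAV2, so that the groups did not overlap. Taken singly, 2 of the 10 had groups without overlap, where 13.9% of all tested genes did. Since the genes were grouped after their values were seen, nothing is read from these counts. The 3 genes Ccdc22, Ccdc93 and Dennd10 were all positive, with a median of 0.033, and the Retriever genes were positive in 2 of 3, with a median of 0.076. Over all 16 genes the sum was 521 ± 3.98 CPM (SD, n = 3) in the controls and 510.5 ± 9.02 CPM (SD, n = 3) with Tppp3 AAV2.

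The COMMD genes and the other subunit genes also differed in transcript length. In GENCODE M21, 6 of the 10 COMMD genes had a transcript of 63 to 1989 bases, the shortest of 4 nearly equal groups of tested genes by length, and 0 of the 6 other subunit genes did. The median log2 fold change over all tested genes was -0.051 in the shortest group and 0.041 in the longest. The part of length in the lower COMMD values was not tested.

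**Figure D4:**
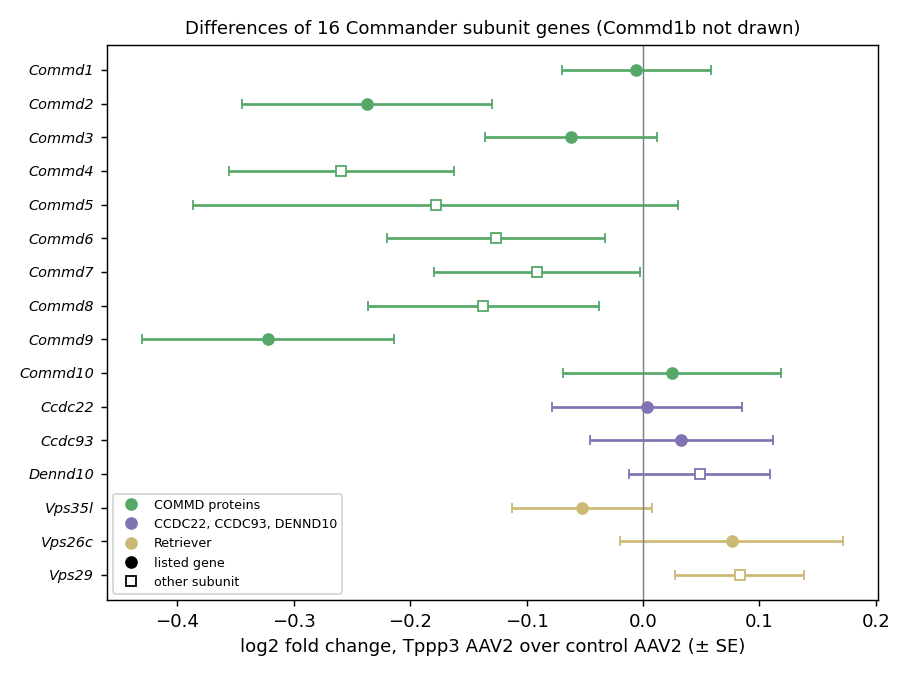
Log2 fold change of Tppp3 AAV2 over control AAV2 (horizontal axis) with its standard error for 16 Commander subunit genes, coloured by place in the complex, with filled circles for the listed members and open squares for the other subunits. The COMMD genes run from -0.32 (Commd9) to 0.025 (Commd10), and the other 6 genes from -0.053 (Vps35l) to 0.083 (Vps29).

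Within the tissue, the members ranged widely in level per length. With CPM divided by the kilobases of the chosen GENCODE M21 transcript, Commd3 was highest in the controls, at 30.6 ± 1.05 CPM per kb (SD, n = 3). Commd10 (14.2 ± 1.33 CPM per kb) and Commd9 (13.8 ± 1.35) followed and did not differ beyond their spread. Ccdc22 (10.97 ± 0.631) and Vps35l (9.93 ± 0.353) came next, then Vps26c (8.67 ± 0.494) and Commd1 (8.46 ± 0.0781), which did not differ beyond their spread, and last Ccdc93 (5.94 ± 0.547) and Commd2 (5.86 ± 0.473), which did not either. The order depends on the transcript model. The 4 coding models of Commd1 run from 469 to 4508 bases, and per coding kilobase Commd1 was the highest member, at 67.6 CPM per kb, above Commd3 at 49.1. Commd1b had no length in the annotation used and was left out of this order.

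Some members share sequence with other genes, which bears on counts made without strand. In the GENCODE M21 models, Commd1 shares 355 stretches of 31 bases with Zrsr1 on the opposite strand, 5.99% of its own. Ccdc22 shares 83.3% of its stretches with Gm36995, a retained-intron model on the same strand with no row analysed here, and 479 with Foxp3 on the opposite strand, and Foxp3 stood at 0.427 to 1.17 CPM. Vps35l shares 298 with 1700016B15Rik on the opposite strand. It also shares 716 with Knop1, a nucleolar protein gene on the opposite strand that stood at 51.3 to 52.7 CPM in the controls and 48.3 to 49.7 CPM with Tppp3 AAV2 (log2 fold change -0.088 ± 0.058, adjusted p = 0.788). Commd2 shares 138 such stretches with 1 processed pseudogene, and Commd9 shares 95 and 60 with 2 others. No row analysed here carries the names of these 3 pseudogenes.

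The genes that work with Commander on the endosome were read from the same fit by lists taken from textbook knowledge. None of their members passed an adjusted p of 0.05 in edgeR's test or in DESeq2's. The counts at an unadjusted p under 0.05 given for each list stand against 7.23% of all tested genes in edgeR and 4.16% in DESeq2. Genes named as without overlap stand against 13.9% of all tested genes. The WASH complex genes, which drive actin on endosomes, had a median of -0.027 on the log2 scale over 5 genes, with 1 at an unadjusted p under 0.05 in edgeR and 0 in DESeq2. Washc4 stood at 50.2 to 56.1 CPM in the controls and 59.0 to 63.4 CPM with Tppp3 AAV2 (log2 fold change 0.17 ± 0.065, edgeR adjusted p = 0.649), and Washc2, the retromer-binding subunit, gave -0.057 ± 0.051 (adjusted p = 0.848). Retromer and sorting nexin genes had a median of 0.019 over 12 tested genes, with 1 at an unadjusted p under 0.05 in each tool. Snx27, a retromer cargo adaptor, stood at 134 to 142 CPM in the controls and 144 to 161 CPM with Tppp3 AAV2 (0.17 ± 0.056, adjusted p = 0.648), and Snx2 had 0.14 ± 0.067 (adjusted p = 0.702). Snx17, the adaptor that brings cargo to Commander, had -0.0057 ± 0.078 and Vps35, the retromer scaffold, 0.0067 ± 0.049. Both were named after their values were seen.

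Cargoes that Commander recycles had a median of 0.048 on the log2 scale over 10 genes, with 2 at an unadjusted p under 0.05 in each tool. Vldlr, a receptor for reelin, stood at 354 to 368 CPM in the controls and 379 to 418 CPM with Tppp3 AAV2, without overlap (0.15 ± 0.052, edgeR adjusted p = 0.648).

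The lists for the other known roles of COMMD1 also had medians near 0. Copper handling genes had a median of -0.019 over 16 genes, with 0 at an unadjusted p under 0.05 in edgeR and 1 in DESeq2. Xiap, which regulates COMMD1, had the smallest p there (0.17 ± 0.079, adjusted p = 0.690), followed by the copper chaperone gene Cox17, whose groups did not overlap (-0.070 ± 0.070, adjusted p = 0.873). NF-kB and cullin genes had a median of -0.024 over 16 genes, with 0 at an unadjusted p under 0.05 in either tool, led by Cul3 (0.097 ± 0.050, adjusted p = 0.730) and the elongin gene Elob (-0.14 ± 0.082, adjusted p = 0.767).

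A short list of genes known to vary between C57BL/6 substrains was read as well, since the labels name no substrain. Of its 7 genes 5 were tested, Nlrp12 was below the low-count filter and the other was not analysed here. Over the 5 tested genes the median log2 fold change was -0.017, with 0 at an unadjusted p under 0.05 in either tool. Entpd4b was without overlap, at 31.1 to 33.7 CPM in the controls and 28.4 to 30.1 CPM with Tppp3 AAV2 (adjusted p = 0.767). Among all tested genes, 13.9% had groups without overlap.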

How the data were processed

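RNA of whole retinas was sequenced as paired reads after poly(A) selection, using a kit without strand marking, per the labels' protocols. The deposited file gives raw total counts per gene symbol, per the file headers. The genome build is GRCm39 (mm39) per the submitters' processing notes. The aligner, counter and annotation were not given in the sources used here. Columns were matched to samples by title, which gave 6 libraries. In addition, 1 column whose header names it as Tppp3 matched no sample title and was not used. The fourth control sample was not analysed here, so the fit planned on 7 samples was made on 6. The labels' protocol and the column headers give 4 Tppp3 and 3 control samples, where the titles give the converse. The titles were followed.

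Of 25655 rows, 14750 passed edgeR's expression filter. Libraries were scaled by TMM and tested with edgeR's quasi-likelihood F test (robust, two-sided), with Benjamini-Hochberg adjustment over all tested genes and a threshold of 0.05. Standard errors were derived from F and the fold change. The common biological coefficient of variation was 11.9%. Levels are CPM of the effective library size, and likeness used log2 CPM (prior count 2). Shares carry 95% Clopper-Pearson intervals. Transcript lengths and shared sequence came from GENCODE M21 (GRCm38), which has models for 9 of the 10 members, taking the longest complete principal transcript. Sequence was called shared from 50 common stretches of 31 bases. Versions were R 4.3.3, edgeR 4.0.16, limma 3.58.1, DESeq2 1.42.0, Python 3.11.15 and matplotlib 3.10.9, and the fit was tested on simulated data.

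Each pair of libraries within a group differed beyond sampling noise, with chi-square values per gene of 4.10 to 13.9. The labels do not say whether libraries came from separate animals, so p-values measure only the spread between these libraries. The members and gene lists were chosen with earlier results of these data known. Named genes were all members, all other Commander subunits, the 2 genes of smallest p in each pathway list (1 is not reported here), substrain genes without overlap, the 5 genes most like Commd1b by Pearson r, and the neighbours of Commd1. Alternatives were DESeq2's size factors and Wald test, other low-count filters, the replicate number as a block, omission of single libraries, thinning to equal depth, and summing Commd1 and Commd1b.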

Additional observations from a re-analysis of the deposited data

How the results depend on the processing

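The count of members past the threshold stayed at 0 under all 12 alternatives run, and so did that of the 7 other Commander subunits. The count over all genes was 2 and became 14 with DESeq2's Wald test (2 higher and 12 lower), 6 with no low-count filter, 1 after thinning to equal depth, 1 with the replicate number as a block, and 0 to 3 with single libraries left out. The numbers do not pair the libraries: same-numbered libraries had correlations of deviations of -0.029, 0.051 and -0.26, and the libraries did not each correlate best with their own number. The difference in Commd1b share, 6.85 percentage points, was 5.69 to 8.12 with single libraries left out and 7.07 after thinning. The log2 fold changes of Commd2, Commd3, Commd9 and Vps35l kept their sign in all 12 alternatives. Commd1 (-0.019 to 0.012), Commd10 (-0.034 to 0.0996), Ccdc22 (-0.043 to 0.044), Ccdc93 (-0.040 to 0.095) and Vps26c (-0.014 to 0.12) did not. Of the 10 COMMD genes without Commd1b, 8 to 10 were negative, with medians of -0.19 without Tppp3 replicate 2 to -0.083 without Tppp3 replicate 3. Of the other values compared, 239 stayed within a set limit and 26 moved past it. For fold changes of members and medians of lists, the limit was the spread between replicates. For counts of genes called it was a fixed ratio, and for the median over all tested genes a fixed difference. The controls held 5 Commd1b counts in all, which limits the precision of its ratio.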
